A study of Mus musculus with 13 samples.

Results

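The genes described are 37 genes of mitochondrial fatty acid oxidation and ketone body metabolism, picked by symbol out of 34745 genes measured in mouse kidney RNA. All 37 were found, 1 row each, and all 37 were abundant enough to test. They cover uptake and binding of fatty acids (3 genes), activation to acyl-CoA (6), the carnitine shuttle with malonyl-CoA decarboxylase (4), acyl-CoA dehydrogenases (6), the hydration, dehydrogenation and thiolysis steps (5), isomerases and a reductase for unsaturated chains (3), electron transfer (3), thioesterases (2), branched-chain dehydrogenases (2) and ketone or acetoacetyl-CoA enzymes (3).

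The study asked how loss of DsbA-L, a mitochondrial and peroxisomal protein encoded by Gstk1, changes the kidney in septic acute kidney injury. Total RNA of renal tissue was sequenced from 13 mice. The groups were wild type with 200 µL of saline (n = 3), DsbA-L knockout with saline (n = 3), wild type with lipopolysaccharide (LPS) at 10 mg/kg into the peritoneum (n = 4) and knockout with LPS (n = 3). The titles call the saline mice naive and number them N1 to N3, and the LPS mice carry AKI numbers, which are used here as library names. Strain, age, the way the knockout was made and the time from injection to sampling are not given in the sources used here.

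Libraries held 14372212 to 17668334 counts. Gstk1, the targeted gene, stood at 40.5 to 54.1 CPM in wild type with saline and 21.2 to 41.8 with LPS, and at 2.51 to 3.77 CPM in knockout with saline and 0.0643 to 1.58 with LPS. Xist, the transcript of the inactive X chromosome, had 11446 to 19041 counts in each saline library and at most 10 in each LPS library, while the Y-linked Ddx3y had 0 in every saline library and 951 to 2996 with LPS. The saline libraries were thus female and the LPS libraries male by these transcripts, so treatment and sex cannot be told apart in any comparison of LPS with saline. The comparisons of genotypes with saline and with LPS each lie within 1 sex. The genotype difference of the LPS change sets a difference between males against one between females, so treatment and sex cannot be told apart there either. On the first principal component of all genes, the saline libraries lay at -94.2 to -82.8 and the wild-type LPS libraries at 94.1 to 111. All knockout LPS libraries lay between these ranges. Of these, AKI-156 (79.4) lay nearer to the wild-type LPS libraries than to AKI-320 (18.8) and AKI-381 (20.1). Genotype results under LPS are therefore given with and without AKI-156. AKI-156 was picked by this closeness to wild type, so smaller p-values or more calls without it are no added evidence of a genotype difference. Between genotypes under LPS, 1373 of all genes were higher and 988 lower at an adjusted p below 0.05 (edgeR). Without AKI-156 these numbers were 2434 and 2105. For genes outside the 37, the values without single knockout LPS libraries were added after seeing the data.

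Fatty acids enter the cell through carriers such as CD36, are bound by FABP proteins, joined to coenzyme A by acyl-CoA synthetases and moved into mitochondria by the carnitine palmitoyltransferases CPT1 and CPT2. In the matrix each turn of beta-oxidation runs through an acyl-CoA dehydrogenase, a hydratase, a hydroxyacyl-CoA dehydrogenase and a thiolase, and the electrons pass by the flavoprotein ETF to the respiratory chain. Ketone bodies are burned through BDH1, OXCT1 and ACAT1. Proximal tubule cells of the kidney rely on these reactions for ATP, and the nuclear receptor PPARα with the coactivator PGC-1α (Ppargc1a) drives many of the genes.

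Upstream sequence is shown for the member with the steepest fall under LPS, Fabp1, and for the gene pair of the trifunctional protein, Hadha and Hadhb, which start back to back on opposite strands. PPARα binds as a dimer to a direct repeat of AGGTCA with 1 base between the copies, and the estrogen-related receptors bind TCAAGGTCA, which holds an AGGTCA of its own. Windows from 250 bases before to 50 after each gene start were taken from RefSeq (GRCm38.p6), in which 33 of the 37 members had 36 windows. The repeat, with at most 2 mismatches on either strand, was found in 4 of the 36 member windows (11.1%) and in 1268 of all 32851 windows (3.86%). TCAAGGTCA without mismatch was found in 0 member windows and in 139 of all (0.423%). The 198 bases of the Fabp1 window that lie before the GENCODE gene model (chr6:71199629-71199826, plus strand) carry a repeat with 1 mismatch, read on the minus strand and shown in capitals.
Fabp1: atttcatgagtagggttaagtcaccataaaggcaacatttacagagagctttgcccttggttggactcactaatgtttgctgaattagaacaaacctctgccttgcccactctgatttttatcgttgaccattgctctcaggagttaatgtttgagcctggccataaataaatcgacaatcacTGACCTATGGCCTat
The Hadha and Hadhb gene models are 85 bases apart (chr5:30155163-30155247, plus strand), and the windows of both genes, which cover this stretch, held neither motif.
Hadha to Hadhb: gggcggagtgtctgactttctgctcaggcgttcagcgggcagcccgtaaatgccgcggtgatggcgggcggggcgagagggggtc
The 4 members with the repeat were Fabp1 (1 mismatch), Cd36, Echs1 and Etfa (2 mismatches each). Their sites are set side by side on the strand that reads the repeat, with the repeat in capitals and 8 flanking bases in lower case; they begin 67, 63, 83 and 77 bases before the RefSeq start.
Fabp1: tcagatatAGGCCATAGGTCAgtgattgt
Cd36: atccaagtAAGTCAGAGGCCAgagaacca
Echs1: gcccgctcAGGTCACGGGTCCacccctta
Etfa: ttgggagtAGGGCAAAGGTAAgggtgtgc
These 4 genes did not move alike under LPS, as the values that follow show.

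In wild-type kidneys 23 of the 37 members were lower with LPS than with saline and 5 were higher at an adjusted p below 0.05 (edgeR quasi-likelihood test, Benjamini-Hochberg over 15703 genes). Over all tested genes 28.6% were called lower and 28.4% higher. The median log2 fold change was -0.82 over the members and 0.00 over all genes. In knockout kidneys 20 members were lower and 2 higher, against 12.9% of all genes called lower and 14.7% higher, with a median of -0.72 over the members and 0.03 over all genes. The 2 comparisons share no library, and 16 genes fell in both, which is 16 of the 23 in wild type and 16 of the 20 in knockout. Both comparisons come from 1 fit and hold the same sex difference. The share of all genes lower in both was not counted. Levels are CPM, counts scaled to library size with TMM factors, and a change is given as log2 ± SE from 1 fit to the 13 libraries. In whole tissue, fewer cells of a type and less RNA per cell cannot be told apart. Markers of several kidney cell types fell beside the members. Of the proximal tubule markers 12 of 15 were lower and 1 was higher in each genotype. Their log2 changes ran from -4.97 to 5.39 in wild type and from -3.81 to 6.19 in knockout. The summed level of these markers was 11804 to 13682 CPM in the 6 saline libraries. With LPS it was 3076 to 5311 CPM in wild type and 2512 to 3548 in knockout. Among 7 markers of the distal tubule and loop of Henle, 6 were lower in wild type and 7 in knockout, with sums of 7133 to 8488 CPM over the saline libraries, 1173 to 2367 in wild type with LPS and 2610.2 to 3586 in knockout with LPS. Collecting duct markers were lower in 4 and 3 of 5, and podocyte markers in 4 and 1 of 5. Macrophage markers summed to 74.4 to 97.0 CPM with saline, 989 to 1691 in wild type with LPS and 259.6 to 775 in knockout with LPS. They did not move as a set: of the 6, 3 rose and 2 fell in wild type, and 4 rose and 1 fell in knockout. Their log2 changes ran from -2.23 to 7.49 in wild type and from -1.53 to 5.4 in knockout. The 4 tested neutrophil markers rose in both genotypes. The part of these shifts in the result was not tested. The members together made 9819 to 10539 CPM with saline, 6715 to 10868 in wild type with LPS and 5455 to 6652 in knockout with LPS.

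**Figure D1:**
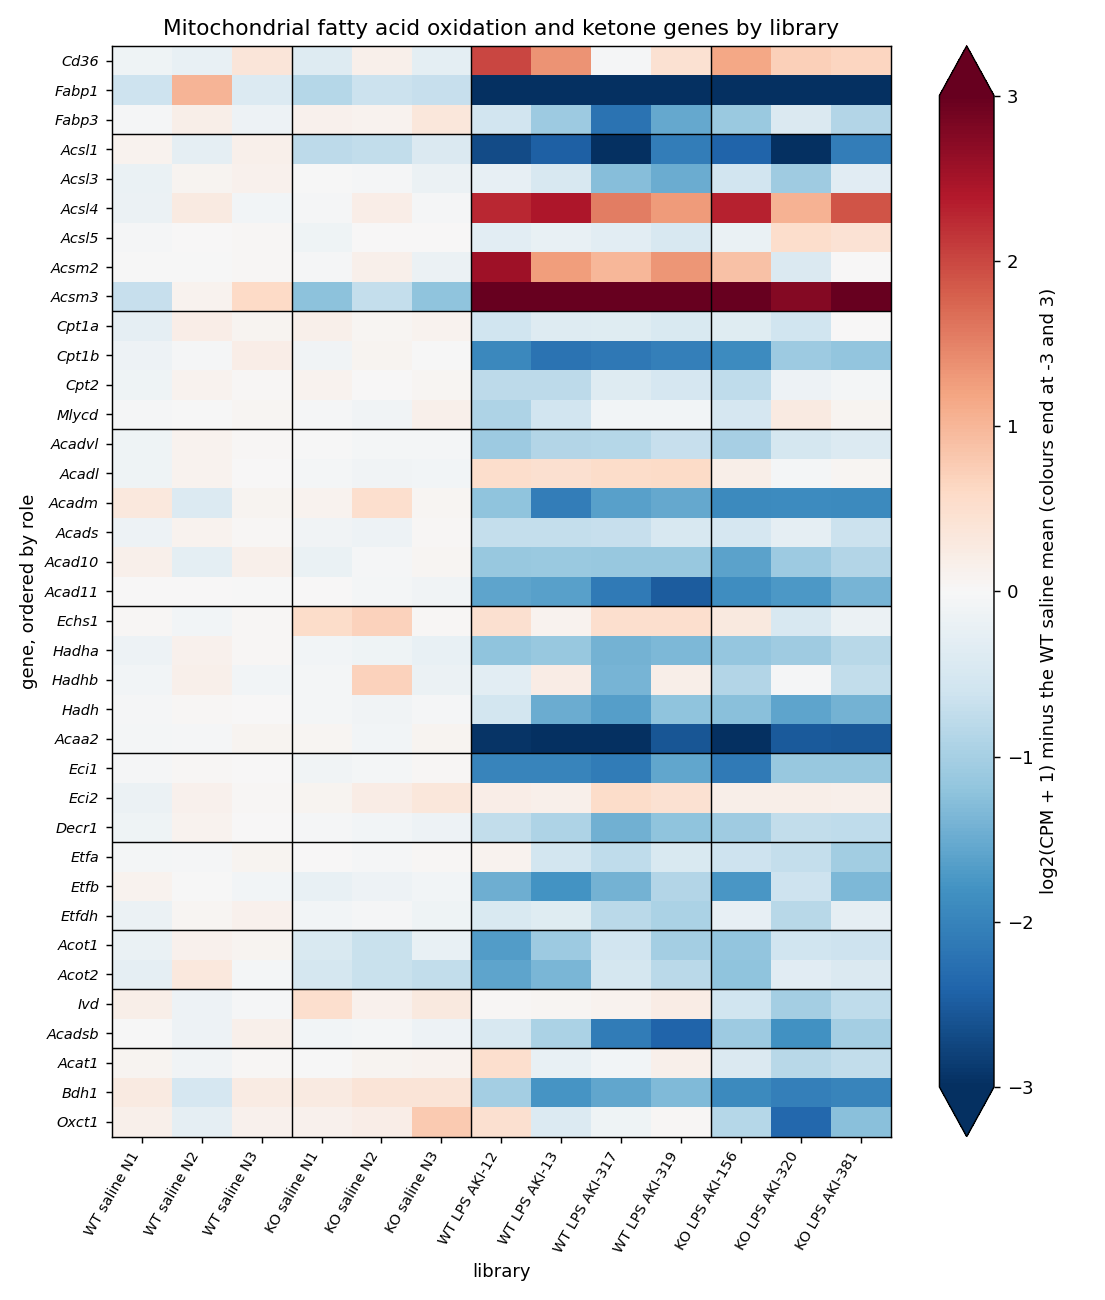
Level of each of the 37 genes (rows, grouped by role with lines) in each of the 13 libraries (columns), as log2(CPM + 1) minus the mean of the 3 wild-type saline libraries; blue is lower, red higher, and colours end at -3 and 3. Most rows turn blue in the 7 LPS libraries, with Acsl4 and Acsm3 red in all of them.

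Among the uptake and binding genes, Fabp1, the liver-type fatty acid binding protein, was nearly lost. It stood at 30.1, 95.7 and 35.0 CPM in wild type with saline and at 0.293, 0.143, 0 and 0 CPM in AKI-12, AKI-13, AKI-317 and AKI-319. In knockout it went from 25.4, 29.6 and 28.5 CPM to 0.321, 0.939 and 0.569. No LPS library came near a saline library. The groups' summed counts were 2537 against 6 in wild type, a ratio of 512.0 (95% interval 235 to 1395, counting error only), and 1363 against 31 in knockout, a ratio of 45.0 (31.6 to 66.5). The fitted log2 change was -8.86 ± 0.63 (adjusted p 2.95e-07, edgeR) and -5.48 ± 0.56 (adjusted p 1.51e-05). The 6 liver markers, none of them at 0, summed to 45.2 to 58.8 CPM in wild type with saline and 84.1 to 161 with LPS, where 2 rose and 0 fell. In knockout they summed to 61.0 to 83.7 CPM with saline and 57.7 to 91.6 with LPS, and there 4 of 6 fell beside Fabp1 and 1 rose; their part in the Fabp1 result was not tested. Fabp3, the heart-type binding protein, fell by 1.27 ± 0.30 in wild type and by 0.99 ± 0.32 in knockout. The knockout call on Fabp3 was lost without N1, N2 or N3 of the knockout, AKI-156 or AKI-381 (adjusted p 0.00864 to 0.162 over all its alternatives). Cd36, the fatty acid carrier of the plasma membrane, was higher in wild type with LPS (1.13 ± 0.38, adjusted p 0.0222), although AKI-317 at 163 CPM lay within the saline range of 144 to 215. The 6 endothelial markers, whose cells also make CD36, summed to 487 to 564 CPM with saline, 279 to 412 in wild type with LPS and 458 to 576 in knockout with LPS. Of these markers 4 fell and 2 rose in wild type, and 2 fell and 0 rose in knockout. Their part in the Cd36 result was not tested. The wild-type call of Cd36 was lost without AKI-12 or without N1 or N2 of wild type (adjusted p up to 0.0792 over all its alternatives), and in knockout Cd36 went by 1.02 ± 0.40 and missed the threshold (adjusted p 0.0744).

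The synthetases that activate fatty acids moved in both directions. Acsl1, the main long-chain synthetase of oxidative tissues, stood at 755, 579 and 775 CPM in wild type with saline and at 108, 127, 60.5 and 165 with LPS. In knockout it went from 407, 419 and 516 CPM to 131, 60.5 and 165. Saline and LPS libraries did not overlap, and the log2 change was -2.61 ± 0.34 (adjusted p 2.52e-05) and -1.91 ± 0.36 (adjusted p 0.00153). Acsl4, which prefers arachidonic acid, rose from 78.6 to 107 CPM over the 6 saline libraries to 216 to 485 in wild type with LPS and 184 to 443 in knockout with LPS. Its log2 change was 1.95 ± 0.32 and 1.80 ± 0.33, with adjusted p 0.000188 and 0.00129.

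Acsm3, a medium-chain synthetase of the matrix that is known to respond to androgen in mouse kidney, rose most of the members. It stood at 8.02, 14.7 and 21.2 CPM in wild type with saline and 5.21, 7.97 and 5.37 in knockout with saline. With LPS it stood at 697, 329, 157 and 143 CPM in wild type and 213, 98.1 and 168 in knockout. Every LPS library was above every saline library, a log2 change of 4.50 ± 0.59 (adjusted p 3e-05) in wild type and 4.69 ± 0.61 (adjusted p 9.14e-05) in knockout. Of 6 kidney genes known as sex-biased in mouse, 3 rose and 2 fell in wild type and 2 rose and 2 fell in knockout. Slco1a1 had 0 counts in every saline library and stood at 43.2 CPM or more in wild type with LPS and 1.88 to 21.3 in knockout with LPS, and Cyp2j13 rose by 6.45 ± 0.61 and 5.18 ± 0.60 on the log2 scale. Kap, controlled by androgen, rose in wild type (1.91 ± 0.28, adjusted p 8.3e-05) but stood at 7602, 10559.9 and 9171 CPM with saline and 9944, 8188 and 7018 with LPS in knockout (-0.12 ± 0.29, adjusted p 0.798). The part of sex in the Acsm3 result cannot be told apart from that of LPS. Reads of Acsm3 and of Eri2 on the other strand cannot be separated where the genes overlap, because the strand setting is not known.

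Acsm2, the other medium-chain synthetase among the members, stood at 509, 512 and 528 CPM in wild type with saline and at 2992, 1231, 1036 and 1294 with LPS, a rise of 1.67 ± 0.37 (adjusted p 0.00166). In knockout it stood at 501, 573 and 455 CPM with saline and 949, 383 and 524 with LPS, and the groups overlapped (0.28 ± 0.37, adjusted p 0.626). Acsl3 fell by 0.82 ± 0.28 in wild type, a call that was lost without N2 or N3 of wild type, AKI-317 or AKI-319 (adjusted p up to 0.141 over all its alternatives), and stood at -0.58 ± 0.30 in knockout. Acsl5 passed the threshold in neither genotype (-0.32 ± 0.16 and 0.32 ± 0.18).

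**Figure D2:**
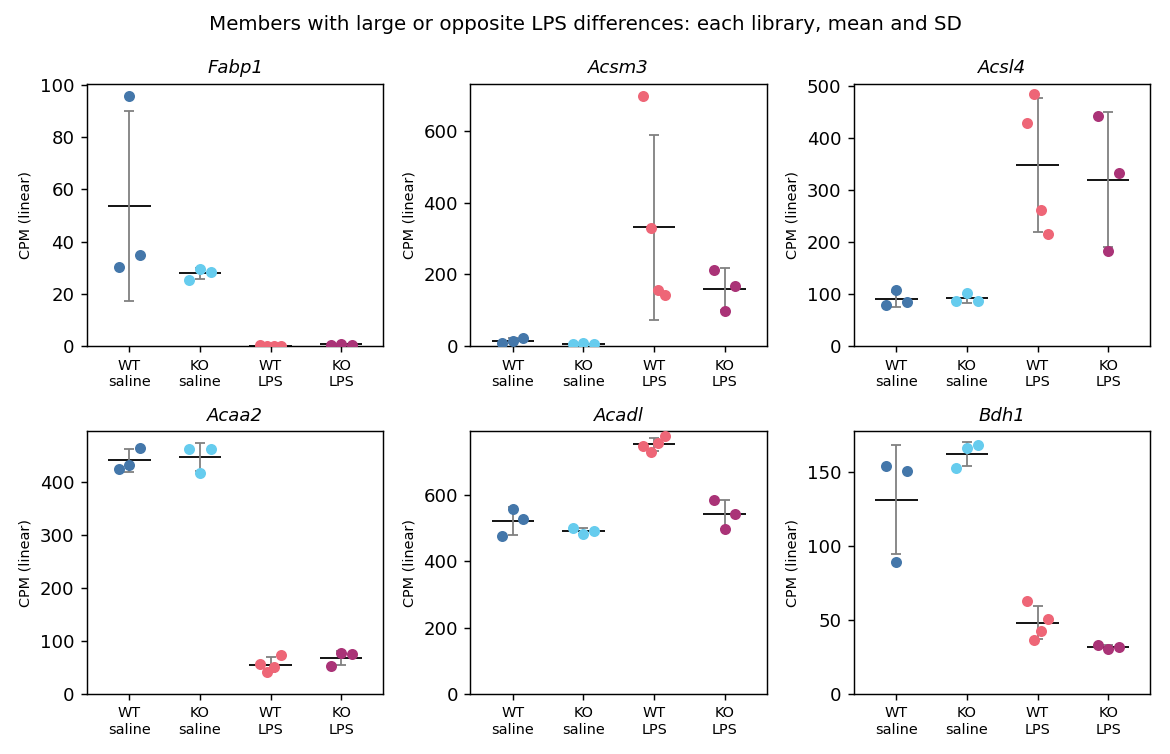
CPM on a linear axis for 6 members in the 4 groups; points are libraries, black lines group means and grey bars SD (n = 3, 3, 4 and 3). Fabp1, Acaa2 and Bdh1 are lower in every LPS library than in every saline library, Acsm3 and Acsl4 are higher, and Acadl is raised in wild type with LPS.

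In the carnitine shuttle, Cpt1a, the CPT1 form that dominates in liver and kidney, changed little and Cpt1b, the muscle form, fell. Cpt1b stood at 70.8, 77.1 and 90.1 CPM in wild type with saline and 19.9, 16.2, 17.1 and 18.4 with LPS. In knockout it stood at 73.6, 83.8 and 78.6 CPM with saline and 20.5, 36.8 and 34.3 with LPS. The log2 change was -2.15 ± 0.19 (adjusted p 1.26e-06) and -1.37 ± 0.20 (adjusted p 0.000241), with no overlap. White fat markers stood at summed levels of 59.3 to 262 CPM in wild type with saline and 4.69 to 41.6 with LPS, and at 17.7 to 119.5 and 8.31 to 55.7 in knockout; 4 of the 5 tested were lower in wild type and 0 in knockout. Brown fat markers summed to 15.6 to 62.3 CPM with saline and 11.3 to 88.8 with LPS in wild type, and to 2.88 to 10.5 and 7.34 to 43.3 in knockout; of the 4 tested, 3 fell and 1 rose in wild type, and 0 fell and 1 rose in knockout. The part of fat tissue in the falls of Cpt1b, Fabp3 and Acsl1 was not tested. Of the Cpt1b transcript sequence, 78.6% is shared with a read-through model, Gm44502, which had 0 counts. Cpt1a fell by 0.46 ± 0.17 in wild type (adjusted p 0.0323), a call lost without N2 or N3 of wild type, AKI-12 or AKI-319 (adjusted p up to 0.273 over all its alternatives), and by 0.40 ± 0.18 in knockout with an adjusted p of 0.126. Cpt2, the inner-membrane partner, fell in wild type (-0.60 ± 0.17, adjusted p 0.00931) and stood at -0.36 ± 0.19 in knockout. Mlycd, which removes the CPT1 inhibitor malonyl-CoA, was called in neither genotype (-0.39 ± 0.22 and -0.02 ± 0.24).

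Of the 6 acyl-CoA dehydrogenases, 5 fell and 1 rose in wild type, and 4 fell in knockout. Acadm, the medium-chain enzyme, stood at 1438, 858 and 1224 CPM in wild type with saline and 499.9, 272, 373 and 395 with LPS. In knockout it stood at 1240, 1619 and 1188 CPM with saline and at 304, 308 and 304 with LPS. The log2 change was -1.61 ± 0.22 (adjusted p 4.18e-05) and -2.14 ± 0.24 (adjusted p 3.58e-05). Acad11, a dehydrogenase that also takes hydroxylated fatty acids, went from 398 to 409 CPM to 134, 129, 91.8 and 71.0 in wild type and from 378 to 407 CPM to 111, 122 and 154 in knockout (-1.92 ± 0.20 and -1.60 ± 0.22, adjusted p 5.52e-06 and 0.000154). Acad10 fell by 1.17 ± 0.18 and 1.14 ± 0.19. Acadvl, for very long chains, fell by 0.87 ± 0.16 and 0.59 ± 0.17; the knockout call was lost without N1, N2 or N3 of the knockout or AKI-156 (adjusted p up to 0.176 over all its alternatives). Acads, for short chains, fell by 0.66 ± 0.14 in wild type and stood at -0.41 ± 0.15 in knockout (adjusted p 0.0557).

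Acadl, the long-chain enzyme that mouse tissues use for long-chain fats, went the other way. It stood at 477, 559 and 527 CPM in wild type with saline and 749, 729.8, 756 and 777 with LPS, with every LPS library above every saline library (0.53 ± 0.13, adjusted p 0.00391). In knockout it stood at 501, 483 and 491 CPM with saline and 585, 496 and 544 with LPS, which overlapped (0.14 ± 0.14, adjusted p 0.505). The wild-type call was lost when libraries were scaled by their totals alone (adjusted p 0.0577); that scaling moved the median of all genes by -0.20 in wild type and to 0.19 in knockout.

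Of the 5 genes of the steps from hydration to thiolysis, 3 fell in each genotype. Acaa2, the thiolase that ends each turn for medium chains, stood at 425, 432 and 465 CPM in wild type with saline and 56.2, 40.5, 51.4 and 73.0 with LPS. In knockout it went from 462, 416 and 463 CPM to 52.8, 76.3 and 74.2. This was a 7.97-fold fall in wild type (-2.99 ± 0.20 on the log2 scale, adjusted p 1.75e-07) and a 6.60-fold fall in knockout (-2.72 ± 0.22, adjusted p 2.19e-06). Hadh, the short-chain hydroxyacyl-CoA dehydrogenase, fell by 1.16 ± 0.22 and 1.35 ± 0.24.

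Hadha and Hadhb encode the alpha and beta subunits of the trifunctional protein and start on either side of the stretch printed above. Hadha stood at 359, 435 and 411 CPM in wild type with saline and 173, 180, 149 and 157 with LPS, and in knockout at 379.6, 365 and 342 and then 178, 191 and 225. Its log2 change was -1.28 ± 0.14 (adjusted p 7.36e-06) and -0.87 ± 0.15 (adjusted p 0.000886). Hadhb was not called in either genotype (-0.22 ± 0.35 and -0.71 ± 0.37), and its LPS libraries, 13.9 to 44.4 CPM in wild type, overlapped the saline range of 35.9 to 42.6. Per length Hadhb was far below its partner, with 4.46 FPKM (counts scaled to gene length and library size) against 38.5 in wild type with saline; 19.7% of its transcript sequence is shared with other gene models, so its level is uncertain. Echs1, the short-chain hydratase, stood at 120.2, 111 and 120.4 CPM in wild type with saline and 165, 127, 167 and 167 with LPS. In knockout it stood at 171, 191 and 119.7 CPM with saline and 144, 83.1 and 103 with LPS. It was called in neither genotype (0.42 ± 0.20 and -0.54 ± 0.22, adjusted p 0.0955 and 0.0787).

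Among the genes that prepare unsaturated chains, Eci1, the mitochondrial enoyl-CoA isomerase, stood at 153, 161 and 159 CPM in wild type with saline and 39.2, 39.1, 36.0 and 52.5 with LPS. In knockout it went from 146, 152 and 162 CPM to 35.4, 71.0 and 71.7. The log2 change was -1.92 ± 0.22 (adjusted p 8.75e-06) and -1.37 ± 0.23 (adjusted p 0.000725). Decr1, the dienoyl-CoA reductase, fell by 1.06 ± 0.17 and 0.76 ± 0.19. Eci2, an isomerase found in mitochondria and peroxisomes, did not fall: it stood at 0.35 ± 0.15 in wild type (adjusted p 0.0523) and -0.05 ± 0.15 in knockout.

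In the ETF chain, Etfb, the beta subunit, fell by 1.36 ± 0.25 and 1.02 ± 0.27, though 44.8% of its sequence is shared with the overlapping model Gm45233 (700.0 counts in all against 37867). Etfa, the alpha subunit, was called only in the knockout (-0.79 ± 0.20, adjusted p 0.0105, against -0.38 ± 0.19 in wild type), and Etfdh, which hands the electrons to ubiquinone, only in wild type (-0.64 ± 0.18, adjusted p 0.00872, against -0.34 ± 0.20). The tests of these differences between genotypes gave adjusted p 0.406 for Etfa and 0.542 for Etfdh.

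Both thioesterases, which split acyl-CoA back to free fatty acid, fell in wild type and were not called in knockout. Acot1, the cytosolic form, stood at 201, 249 and 241 CPM and then 71.2, 107, 153 and 112 in wild type, and at 167, 143 and 196 and then 100.1, 150.3 and 148 in knockout. The log2 change was -1.06 ± 0.23 (adjusted p 0.00144) and -0.34 ± 0.25 (adjusted p 0.333). Acot2, the mitochondrial form, stood at 61.5, 92.7 and 70.8 CPM and then 24.0, 27.8, 51.3 and 41.9 in wild type, and at 50.8, 46.4 and 43.6 and then 31.2, 58.0 and 54.4 in knockout. Its change was -1.05 ± 0.27 (adjusted p 0.00435) and 0.03 ± 0.29 (adjusted p 0.952). The genotype difference of the LPS change missed the threshold for both (0.72 ± 0.34, adjusted p 0.23, for Acot1 and 1.08 ± 0.39, adjusted p 0.134, for Acot2). The genes lie side by side and share 19.2% and 27.7% of their sequence with other models, each other included, so the split of reads between them is uncertain.

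The branched-chain dehydrogenases belong to amino acid breakdown. Ivd, the isovaleryl-CoA dehydrogenase of leucine breakdown, stood at 187, 147 and 161 CPM in wild type with saline and 169, 172, 178 and 193 with LPS, which overlapped (0.11 ± 0.15, adjusted p 0.554). In knockout it fell from 233, 179 and 200.4 CPM to 108, 80.1 and 96.2 (-1.11 ± 0.17, adjusted p 0.00026). Acadsb, the enzyme of isoleucine breakdown, fell by 1.30 ± 0.37 and 1.19 ± 0.40; the knockout call was lost whenever 1 saline library or 1 knockout LPS library was left out (adjusted p up to 0.152 over all its alternatives).

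The ketone enzymes fell in knockout, all 3 of them, and in wild type only Bdh1 did. Bdh1, which turns 3-hydroxybutyrate into acetoacetate, stood at 154, 89.0 and 151 CPM in wild type with saline and 62.5, 36.6, 42.8 and 50.3 with LPS. In knockout it stood at 153, 166 and 168 CPM with saline and 33.0, 30.0 and 31.7 with LPS. The change was -1.45 ± 0.21 (adjusted p 5.81e-05) and -2.36 ± 0.23 (adjusted p 1.09e-05), and no library overlapped.

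Oxct1, the transferase that commits acetoacetate to oxidation, stood at 557, 419 and 547 CPM in wild type with saline and 701, 376, 459 and 519 with LPS, a change of 0.02 ± 0.31. In knockout it fell from 552, 581 and 864 CPM to 279, 97.3 and 212 (-1.76 ± 0.34, adjusted p 0.00167). Acat1, the acetoacetyl-CoA thiolase, stood at 469, 412 and 461 CPM and then 636, 383, 423 and 499 in wild type (0.12 ± 0.18), and at 446, 474 and 481 and then 332, 251 and 267 in knockout (-0.72 ± 0.19, adjusted p 0.0134). For both genes the wild-type groups overlapped and the knockout groups did not; the test of the difference between genotypes is given further on.

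**Figure D3:**
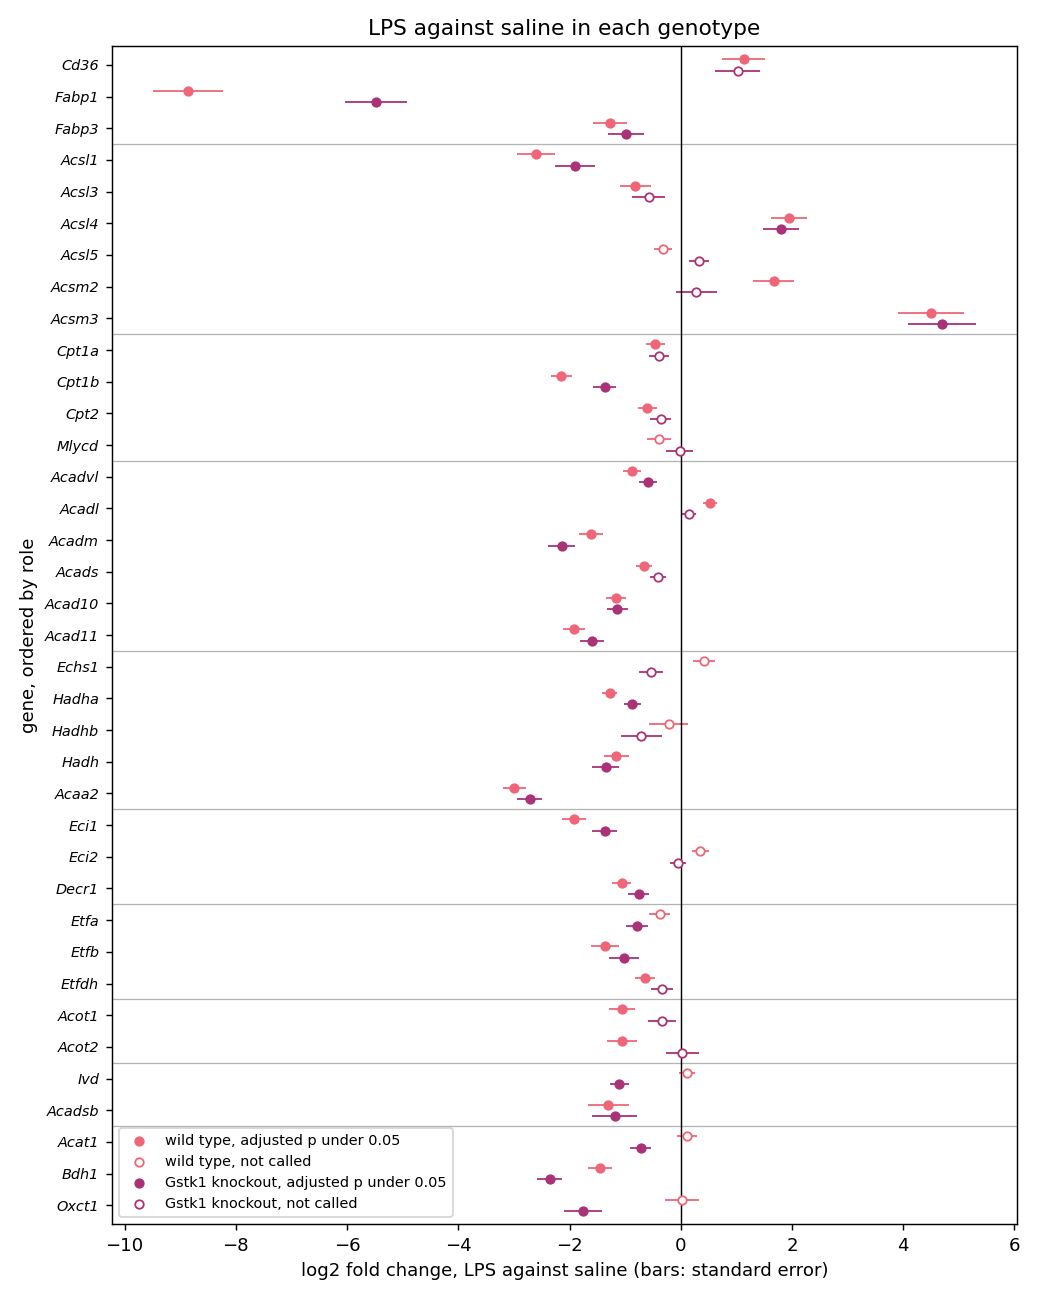
Log2 fold change of LPS against saline for each of the 37 genes in wild type (pink) and knockout (purple), with bars of 1 standard error; filled points passed an adjusted p below 0.05. Most points lie left of 0 in both genotypes, from -8.86 for Fabp1 to 4.69 for Acsm3. Ivd, Acat1, Oxct1, Echs1 and Eci2 lie left of 0 only in the knockout, and of these Ivd, Acat1 and Oxct1 passed there.

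The order of levels per length also shifted. With saline, Acaa2 held the highest FPKM of the members in both genotypes (298 and 297), followed by Acadl (262 and 243), Acadm (183 and 207) and Cpt1a (157 and 164). With LPS, Acadl came first (330.3 and 299), and Acaa2 dropped to place 17 in wild type (32.4 FPKM) and place 14 in knockout (51.1). Acsm3 moved from place 37 to places 15 and 24. FPKM divide by the length of the gene model, 1515 bases for Acaa2 and 6550 for Acadm, so this order depends on those lengths. By mean CPM in wild type with saline, Acadm (1173) stood above Acaa2 (441). The median coefficient of variation of the members between mice was 10.5% and 6.51% in wild type and knockout with saline, and 24.5% and 24.4% with LPS, over 3, 3, 4 and 3 libraries, a difference that was not tested.

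Whether loss of DsbA-L changed these genes in the injured kidney was asked by setting the LPS groups of both genotypes side by side. Of the 37 members, 2 were higher in the knockout (Acsl5 and Cpt1b) and 5 lower (Acsm2, Acadl, Ivd, Acat1 and Oxct1), while over all genes 8.74% were called higher and 6.29% lower. The median over the members was 0.16, against 0.00 over all genes. Cell type markers differed in the same comparison: 5 of 15 proximal tubule markers were lower and 2 higher, 4 of 6 endothelial markers were higher and 1 lower, 4 of 6 macrophage markers were higher and 1 lower although their summed level was lower, and 2 of the 7 distal tubule and loop markers and 2 of 5 collecting duct markers were higher. Their part in the result was not tested. Scaling by library totals moved the median of all genes to 0.34 and the members' split to 13 higher and 4 lower, so only differences relative to that shift can be read.

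Of the 5 members lower in the knockout under LPS, Acat1 and Oxct1 belong to ketone use, Ivd to leucine breakdown, and Acsm2 and Acadl had risen in wild type; Acadsb, the other branched-chain dehydrogenase, stood at 0.00 and was not called (adjusted p 0.997). Ivd was lower by 0.91 ± 0.16 (adjusted p 0.0049), with 80.1 to 108 CPM in the knockout against 169 to 193 in wild type. Acat1 was lower by 0.78 ± 0.18 (adjusted p 0.0151), with 251 to 332 CPM against 383 to 636. Oxct1 was lower by 1.39 ± 0.32 (adjusted p 0.0136), with 97.3 to 279 CPM against 376 to 701. In none of the 3 did a knockout LPS library reach a wild-type one. Bdh1 showed no overlap either but missed the threshold (-0.61 ± 0.21, adjusted p 0.0679). Acsm2, Acsl5 and Fabp1 did not overlap in this comparison either. The share of all genes without overlap was not counted, so it does not set these genes apart.

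Acsm2 was lower by 1.40 ± 0.36 (adjusted p 0.0225) and Acadl by 0.48 ± 0.13 (adjusted p 0.0306), a difference also lost with library totals, without a filter and without N3 of wild type, N1 or N2 of the knockout or AKI-319 (adjusted p up to 0.479 over all its alternatives). Kap, a kidney gene controlled by androgen, was lower beside Acsm2 in the knockout with LPS (-1.38 ± 0.28, adjusted p 0.00829; 7018 to 9944 CPM against 16851 to 28581), as was Slco1a1 (-2.89 ± 0.73, adjusted p 0.0286). Without AKI-156 Kap stood at -1.52 (adjusted p 0.00365) and Slco1a1 at -3.84 (adjusted p 0.00687). The Kap call was lost without AKI-381 (-1.25, adjusted p 0.051), and that of Slco1a1 without AKI-320 (-2.77, adjusted p 0.109) or AKI-381 (-2.37, adjusted p 0.0682). Of the 6 kidney genes known as sex-biased in mouse, 2 were called lower in this comparison, Kap and Slco1a1, and 2 were called higher. Their log2 differences ran from -2.89 to 2.21, so they did not move as a set. The part of these genes in the Acsm2 difference was not tested. Acsm3 stood at -1.05 ± 0.50 and was not called (adjusted p 0.16).

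Acsl5, a long-chain synthetase of mitochondria and endoplasmic reticulum, was higher in the knockout by 0.61 ± 0.16 (adjusted p 0.0249), with 93.1, 155 and 144 CPM against 77.0 to 92.0 in wild type. Cpt1b was higher by 0.77 ± 0.19 (adjusted p 0.0171), with 20.5, 36.8 and 34.3 CPM against 16.2 to 19.9. In both, AKI-156 lay just above the wild-type libraries and AKI-320 and AKI-381 well above them. Fabp1 was higher by 2.44 ± 0.87 and missed the threshold (adjusted p 0.0723), at counts of 5 to 16 against 0 to 4.

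Over all members, AKI-156 lay within the range of the wild-type LPS libraries for 25 of 37 genes, above it for 4 and below it for 8. AKI-320 and AKI-381 each lay within it for 14, above it for 14 and below it for 9. The same counts were not made over all genes, so they do not set the members apart from other genes. Without AKI-156 the counts were 5 higher and 6 lower of 37, while 2434 of all 16021 tested genes were called higher and 2105 lower. The rise in calls was thus not particular to the members. Fabp1 (2.72, adjusted p 0.044), Cpt2 (0.49, adjusted p 0.0283) and Eci1 (0.78, adjusted p 0.00319) were called higher in addition and Echs1 lower (-0.75, adjusted p 0.0145). Without AKI-319 they were 1 higher and 4 lower, with Acsl5 and Acadl lost. Without AKI-320 or without AKI-381 they were 0 higher and 1 lower, Ivd. With only the 7 LPS libraries in the fit none was called; 2 higher and 6 lower had an unadjusted p below 0.05, and adjusted p was 0.0551 for Ivd and 0.0778 for Oxct1.

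**Figure D4:**
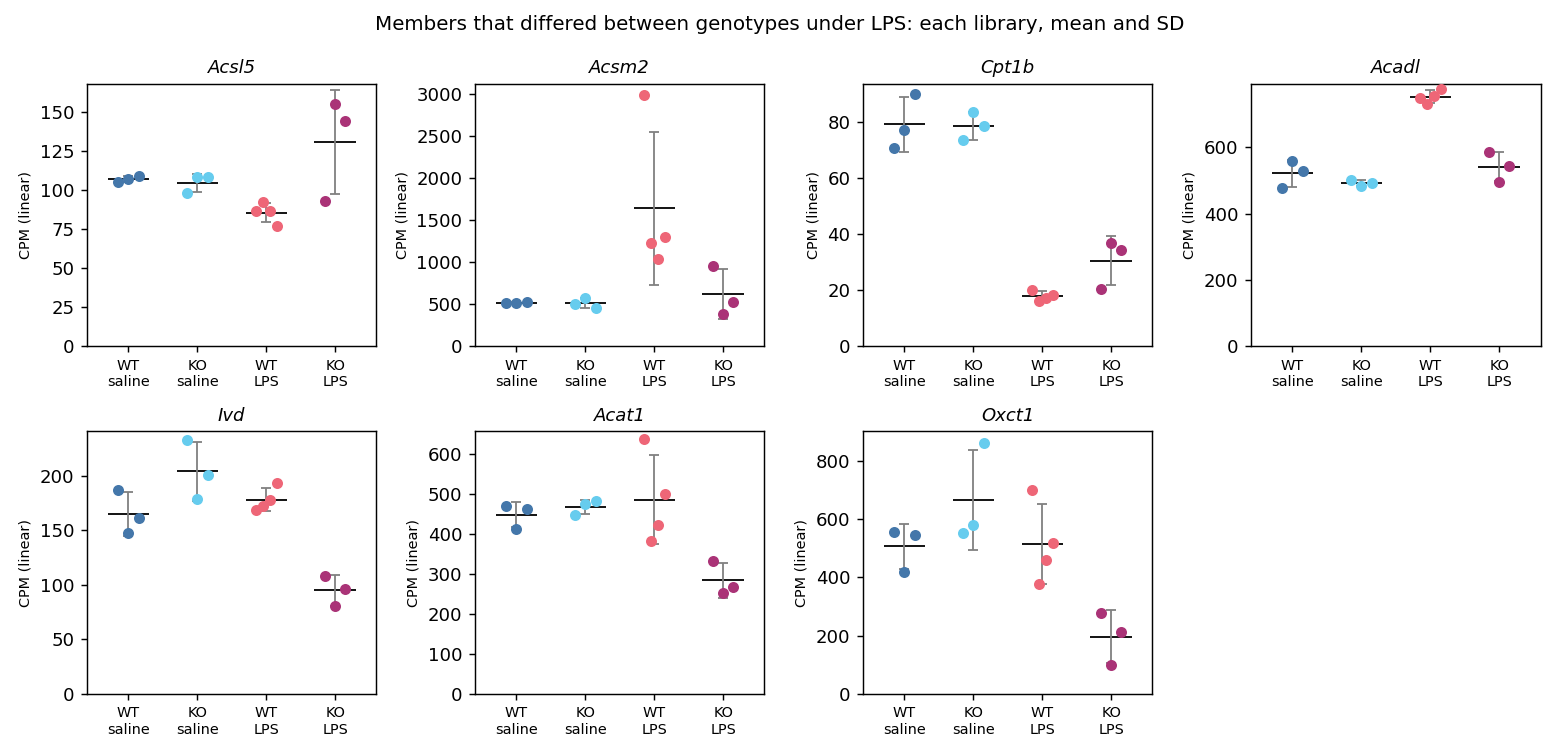
CPM on a linear axis for the 7 members called between genotypes under LPS; points are libraries, black lines group means and grey bars SD (n = 3, 3, 4 and 3). Ivd, Acat1 and Oxct1 are lowest in the knockout LPS group, and in Acsl5 and Cpt1b 1 of its 3 points lies close to the wild-type LPS group.

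With saline, 0 of the 37 members differed between knockout and wild type, and DESeq2 and limma-voom also called 0; over all genes 0.00637% were called higher and 0.0127% lower. At an unadjusted p below 0.05 there were 3 members, all lower in the knockout: Fabp1 (-0.95 ± 0.42, with 95.7 CPM in N2 of wild type), Acsm3 (-1.24 ± 0.55) and Acot2 (-0.68 ± 0.29). Acsl1 stood at -0.65 ± 0.35 (adjusted p 1.0), with 407 to 516 CPM in the knockout below 579 to 775 in wild type. Among the abundant members, Acaa2 stood at 0.02 ± 0.20 and Acadl at -0.08 ± 0.14.

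The test of whether the LPS change itself differed between genotypes called 1 member, Ivd, lower in the knockout (-1.22 ± 0.23, adjusted p 0.0298). Over all genes 1.36% were called higher and 0.745% lower. In this test too, treatment and sex cannot be told apart. Ivd rested on single libraries: the call was lost without any 1 of the 6 saline libraries, AKI-319, AKI-320 or AKI-381, at adjusted p up to 0.0914 over its alternatives. Next came Oxct1 (-1.78 ± 0.46, adjusted p 0.0589), Fabp1 (3.38 ± 0.96, adjusted p 0.0772), Echs1 (-0.96 ± 0.30, adjusted p 0.0932), Acat1 (-0.84 ± 0.27, adjusted p 0.0965) and Bdh1 (-0.91 ± 0.31, adjusted p 0.111), none of which passed. Without AKI-156, 5 members were called higher and 5 lower, and of all 16021 tested genes 1414 were called higher and 1115 lower. The higher were Fabp1 (3.67, adjusted p 0.0274), Acsl5 (0.83, adjusted p 0.00915), Cpt1b (adjusted p 0.00706), Eci1 (0.81, adjusted p 0.0242) and Acot2 (1.31, adjusted p 0.0283). The lower were Ivd (-1.32, adjusted p 0.00255), Oxct1 (-2.13, adjusted p 0.00773), Acat1 (-0.97, adjusted p 0.0262), Echs1 (-1.20, adjusted p 0.0111) and Acsm2 (-1.83, adjusted p 0.0231). Scaling by library totals moved the median of all genes to 0.37 and called 2 higher and 1 lower.

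Genes next to the members in the pathway were taken from 5 further lists. Over all tested genes 28.6% were called lower and 28.4% higher in wild type, and 12.9% and 14.7% in knockout. Of 18 genes of ketone synthesis and acyl carriers, 15 fell and 2 rose in wild type and 12 fell and 2 rose in knockout. Acss1, the mitochondrial acetyl-CoA synthetase, fell by 2.31 ± 0.21 and 2.22 ± 0.23, and the carnitine transporter Slc22a5 by 1.60 ± 0.13 and 0.97 ± 0.14. Crot, the peroxisomal carnitine octanoyltransferase, rose by 2.01 ± 0.37 and 1.43 ± 0.38, and Acot9 by 1.73 ± 0.19 and 1.06 ± 0.20. The knockout rise of Crot was lost without AKI-156 (0.81, adjusted p 0.0769).

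Of 19 regulators, 11 fell and 2 rose in wild type, and 6 fell and 1 rose in knockout. Ppara itself was called in neither genotype (-0.38 ± 0.41, adjusted p 0.456, and -1.15 ± 0.45, adjusted p 0.0698). Ppargc1a fell from 184, 145 and 164 CPM to at most 28.8 in wild type (-2.87 ± 0.28) and from 160.3, 177 and 136 to 41.6, 51.7 and 82.9 in knockout (-1.43 ± 0.30). It was higher in the knockout under LPS by 1.38 ± 0.28 (adjusted p 0.00793), by 1.58 without AKI-156 (adjusted p 0.00151) and by 1.06 without AKI-381, where the call was lost (adjusted p 0.0513). Esrrg, an estrogen-related receptor that works with PGC-1α, fell by 3.01 ± 0.29 and 1.27 ± 0.30, was higher in the knockout under LPS by 1.59 ± 0.28 (adjusted p 0.0055) and had an LPS change that differed between genotypes by 1.73 ± 0.41 (adjusted p 0.0473). Without AKI-156 these were 1.89 (adjusted p 0.000138) and 2.03 (adjusted p 0.00186), and the second call was lost without AKI-320 (adjusted p 0.104) or AKI-381 (adjusted p 0.119). Acacb, which makes the malonyl-CoA that restrains CPT1, fell by 2.76 ± 0.34 and 1.12 ± 0.36 and was higher in the knockout under LPS by 1.31 ± 0.34 (adjusted p 0.0221). In that comparison AKI-156 at 11.5 CPM lay within the wild-type LPS range of 10.0 to 14.6, while AKI-320 and AKI-381 stood at 41.8 and 39.3. Without AKI-156 the difference was 1.70 (adjusted p 0.000136), and the call was lost without AKI-320 (1.04, adjusted p 0.107) or AKI-381 (1.11, adjusted p 0.112).

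Of 13 genes of peroxisomal beta-oxidation, 9 fell and 1 rose in wild type, and 8 fell and 1 rose in knockout. Acot3 fell by 5.12 ± 0.35 and 3.88 ± 0.37, Acot4 by 2.59 ± 0.18 and 1.35 ± 0.19, and Acaa1b, a peroxisomal thiolase, by 3.10 ± 0.33 and 1.65 ± 0.34. Pex11a, a peroxisome division factor, rose by 0.97 ± 0.16 and 0.88 ± 0.17.

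Targets of PPARα outside oxidation moved in both directions. Of 13 tested, 5 fell and 4 rose in wild type, and 3 fell and 3 rose in knockout. The wild-type shares, 38.5% lower and 30.8% higher, stood beside 28.6% and 28.4% of all genes, so the higher share was near that of all genes. Cyp4a14, a fatty acid omega-hydroxylase, fell from 3586, 4266 and 4064 CPM to 63.3, 103, 103 and 74.3 in wild type (-5.53 ± 0.36) and from 4446, 3794 and 4429 to 231, 508 and 785 in knockout (-3.05 ± 0.36). It was higher in the knockout under LPS by 2.57 ± 0.32 (adjusted p 0.00146), and the LPS changes differed by 2.48 ± 0.46 (adjusted p 0.0298). Without AKI-156 these were 2.91 (adjusted p 7.29e-06) and 2.82 (adjusted p 0.000239), and the second call was lost without AKI-320 (adjusted p 0.0801) or AKI-381 (adjusted p 0.086). Pdk4, the kinase that shuts pyruvate dehydrogenase when fat is burned, rose by 2.09 ± 0.47 in wild type. The knockout libraries stood at 247 to 379.8 CPM with saline and at 1723 in AKI-156, 303 in AKI-320 and 487 in AKI-381; the called change of 1.41 ± 0.48 (adjusted p 0.0415) rested on AKI-156 and was 0.33 without it (adjusted p 0.465). It was lower in the knockout under LPS by 1.47 ± 0.46 (adjusted p 0.0457), with -2.55 without AKI-156 (adjusted p 0.000118), and the call was lost without AKI-320 (-1.05, adjusted p 0.148) or AKI-381 (-1.18, adjusted p 0.203). Plin2, the coat protein of lipid droplets, rose by 3.73 ± 0.34 and 3.6 ± 0.34, and Angptl4, an inhibitor of lipoprotein lipase, by 0.86 ± 0.20 in wild type, with 0.53 ± 0.21 in knockout (adjusted p 0.0706).

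Of 13 genes of lipid synthesis and storage, 7 fell and 3 rose in wild type, and 4 fell and 2 rose in knockout. Scd1, the stearoyl-CoA desaturase, fell by 2.75 ± 0.41 and 1.64 ± 0.44, the second call being lost without AKI-320 (-1.45, adjusted p 0.0515). Hilpda, an inhibitor of triglyceride breakdown in lipid droplets, rose by 4.17 ± 0.49 and 2.64 ± 0.49, and Pnpla2, the triglyceride lipase it inhibits, rose in wild type by 1.67 ± 0.28 and stood at 0.36 ± 0.29 in knockout. Under LPS both were lower in the knockout, by 1.95 ± 0.42 (adjusted p 0.0109) and 1.16 ± 0.28 (adjusted p 0.0159). Without AKI-156 they stood at -2.73 for Hilpda (adjusted p 0.000262) and -1.23 for Pnpla2 (adjusted p 0.0144). Both calls were lost without AKI-320 (adjusted p 0.0554 and 0.0677) or AKI-381 (adjusted p 0.0662 and 0.0827).

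**Figure D5:**
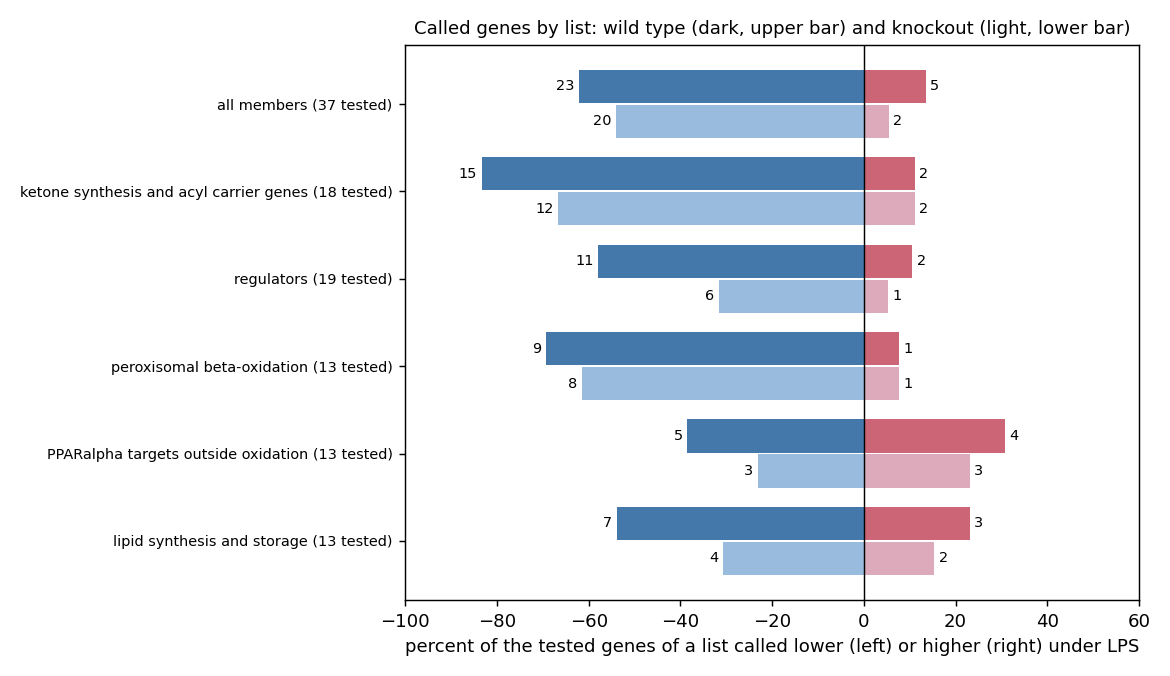
Share of the tested genes of each list called lower (left) or higher (right) with LPS, in percent, with the number of genes at the end of each bar; the upper, darker bar is wild type and the lower, lighter bar knockout. Lower calls outnumber higher ones in the 37 genes (23 and 20 lower) and in the ketone synthesis and acyl carrier genes (15 and 12 lower, the longest bars to the left), while PPARα targets have the longest bars to the right. Over all tested genes, which are not drawn, 28.6% were lower and 28.4% higher in wild type, and 12.9% and 14.7% in knockout.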

How the data were processed

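Kidney RNA from 13 mice was sequenced, 1 library per mouse by the labels. No source says that libraries of a group were prepared apart, so p-values measure the spread between these samples. That spread was estimated over the 4 groups together, so tests between the LPS groups also draw on the saline libraries. There the members varied less (median coefficient of variation 10.5% and 6.51%) than with LPS (24.5% and 24.4%). Raw counts and FPKM of 34745 genes were deposited by the authors side by side in 1 table, per the file headers. HISAT2, edgeR, TopHat, TopHat2 2.0.9 and the build hg38 stand in the submitters' processing notes without roles, while 34344 identifiers match GENCODE M21 (mouse GRCm38), 80.9% of them with the same start and end. The deposited FPKM equal counts scaled to gene model length and library total within 0.00398%, and were used only to compare levels between genes. The counter and its strand setting are not given in the sources used here.

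Counts were tested in R 4.3.3 with edgeR 4.0.16: filterByExpr (minimum count 10) kept 15703 genes, TMM factors were 0.7724 to 1.193, and a quasi-likelihood model with 4 group means was fitted to all 13 libraries. P-values were adjusted by Benjamini-Hochberg over the tested genes and called below 0.05; the SE is the log2 change divided by the square root of F. Alternatives were RLE factors, library totals, leaving out mitochondrially encoded genes, DESeq2 1.42.0, limma-voom (limma 3.58.1), no filter, 1 CPM in 3 libraries, only the groups compared, a minimum absolute log2 change of 1, a replicate block and leaving out each library in turn. Replicate libraries differed by far more than counting noise (chi-square per degree of freedom 12.47 to 121.5). The test was checked on simulated counts. Shared sequence was the share of 50-base stretches of a gene's transcripts found in other genes of the annotation. The members, lists, named-gene rule (members in full; in every library those among the 8 smallest p of a comparison or called in opposite directions in 2 comparisons; of other lists up to 4 called genes or, where none was called, the 2 with the highest mean; Ppara, Ppargc1a, Cyp4a14, Pdk4, Angptl4 and Gstk1 always) and alternatives were chosen with earlier results of these data known. Some genes of the other lists are not reported here.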

Additional observations from a re-analysis of the deposited data

Results flagged for a closer look

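In wild type with LPS, 3 of the 37 members had a library apart from the other 3 by Dixon's criterion, which chance meets in about 1 of 20 groups. Only this group of 4 libraries was checked, and the groups of 3 were not. Acsm2 stood at 2992 CPM in AKI-12, against 1036 to 1294 in the others. Acads stood at 69.4 CPM in AKI-319, against 58.9 to 60.2. Echs1 stood at 127 CPM in AKI-13, against 165 to 167. The LPS change of Ivd differed between genotypes, with a difference of -1.22 on the log2 scale (knockout minus wild type); its adjusted p was 0.0298 and the loss of that call without single libraries is given with the result above.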

How the results depend on the processing

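Of 185 member comparisons 58 were called, 33 of them under every alternative run, and none reversed. Counts between genotypes under LPS depended on single libraries. For knockout against wild type under LPS, members called higher (2) numbered 13 with library totals, 1 with the replicate block, 0 with only the groups compared and 0 with an absolute log2 change of at least 1, and 0 to 5 with 1 library left out (1 without AKI-319, 5 without AKI-156, 0 without AKI-320 or AKI-381). Members called lower (5) numbered 0 with only the groups compared, 2 with the fold threshold and 1 to 6 with 1 library left out (1 without AKI-320 or AKI-381). For the genotype difference of the LPS change, members higher (0) numbered 2 with library totals, 1 with DESeq2 and 0 to 5 with 1 library left out (5 without AKI-156). Members lower (1) numbered 4 with DESeq2, 2 without a filter, 0 with the replicate block and 0 to 5 with 1 library left out (5 without AKI-156, 2 without AKI-13, 0 without any saline library, AKI-319, AKI-320 or AKI-381). The summed level of the members in knockout with LPS was 6170.1 CPM and 6951.0 with library totals. Over all genes, knockout against wild type under LPS gave 1373 higher and 988 lower, and 48 and 54 with only the groups compared. The causes were not tested. The replicate block, over saline numbers N1 to N3, cut the members lower in knockout with LPS from 20 to 13; same-numbered saline libraries did not deviate together (r 0.0179, -0.0501 and -0.0299), so the numbers do not pair the mice. Counts as low as those of Fabp1 under LPS limit its fold change.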
